A study of Mus musculus with 4 samples.

Results

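The genes described here are 48 members of the Wnt pathway, comprising 14 Wnt ligands, 11 receptors and co-receptors, 5 genes of the R-spondin axis, 10 inhibitors, 4 Tcf and Lef factors and 4 feedback or response genes. They were chosen by gene symbol, and each was read from the brightest probe set that carries that symbol alone. Such a probe set was found for 47 of the 48, out of 19938 genes named on the array, and Tcf7 was not analysed here. A filter on dim genes (a mean log2 level of at least 7.32 over the 4 arrays) was passed by 45 of the 47. Rspo2 and Dkk4 did not pass it and are described by their values.

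The samples were embryonic mouse skin taken at E16.5 (days of gestation) and run on 4 Affymetrix arrays, 2 for Ovol2 BT and 2 for control embryos, with RNA of 2 mice on each. Ovol2 BT embryos carried TRE-Ovol2-Flag, an Ovol2 transgene with a tetracycline-responsive promoter, together with K5-tTA, in which the keratin 5 promoter directs the tetracycline transactivator to the basal epidermis, and so overexpressed this zinc finger transcription factor in the epidermis. Controls carried TRE-Ovol2-Flag alone or were wild type, so no control array held K5-tTA. The age was chosen for early changes, before the 2 genotypes differed much in morphology. The labels give the strain FVB/N for the Ovol2 BT arrays and CB6F1 for the control arrays, while the growth protocol speaks of littermates, and a strain effect and a genotype effect cannot be told apart.

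Values are PLIER intensities, which are linear probe set signals, taken to log2(intensity + 16), and all levels and differences are on this scale unless stated. Ovol2 read 12.93 and 12.96 on the Ovol2 BT arrays, against 7.59 and 8.29 on the control arrays. All 4 arrays are labelled female, yet the Y-linked gene Kdm5d read 9.70 on Ovol2 BT replicate 1 and 9.42 on control replicate 1, against 4.80 and 5.76 on Ovol2 BT and control replicate 2. Both arrays numbered 1 thus go against their sex label. For the genes that the results turn on, the difference within each replicate number is given, so that arrays with and without Y-linked signal are not mixed. Where the groups of a gene do not overlap, the 2 differences must share a sign, so they show size and not agreement. Ovol2 BT replicate 2 stood apart, with 893 genes reading over 2-fold below the other 3 arrays' mean, where each other array had 30 to 43 such genes.

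Markers of skin were high on all arrays. The basal keratins Krt5 and Krt14, the spinous keratin Krt10 and the dermal collagen Col1a1 lay between 12.45 and 14.00 on every array. Over 8 basal keratinocyte markers the summed intensity was 26260 and 27332 on the Ovol2 BT arrays, against 39832 and 41939 on the control arrays. The keratins Krt5, Krt14 and Krt15 carried this gap: the other 5 markers summed to 11123 and 10521 on the Ovol2 BT arrays, against 10216 and 12716 on the control arrays, and overlapped. The 8 dermal fibroblast markers summed to 67795 and 63499 on the Ovol2 BT arrays, against 66227 and 63946 on the control arrays. Skeletal muscle markers (8 genes) summed to 20288 and 41368 in Ovol2 BT and to 38650 and 21001 in control skin. Erythroid markers (4 of 8 measured) summed to 3958 and 14770 in Ovol2 BT skin, against 3371 and 6753 in control skin. Muscle and blood signal thus differed within each genotype. Median differences were -0.08 for suprabasal keratinocyte (7 of 9 measured), 0.11 for endothelial and 0.46 for myeloid markers (8 each).

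Wnt proteins are secreted, lipid-modified ligands that bind Frizzled receptors together with the co-receptors Lrp5 and Lrp6. In the β-catenin branch this stops the destruction of β-catenin, which enters the nucleus and acts with Tcf and Lef factors on response genes such as Axin2. Other Wnt proteins signal through Ror2 and related receptors without β-catenin. In embryonic skin, Wnt signals between epidermis and dermis are needed for hair placodes to form.

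No member changed at an adjusted p under 0.05 (limma, Benjamini-Hochberg over 14953 genes), where 4 genes, or 0.0268% of all tested, were called. At an unadjusted p under 0.05 there were 5 members of 45, or 11.1%, against 4.23% of all genes tested. Of these, 2 were higher (all genes 2.49%), Wnt9a and Sp5, and 3 were lower (all genes 1.74%), Wnt16, Dkk1 and Lef1. Sp5 passed the dim-gene filter only through its Ovol2 BT values, so its call does not bear on the share, and without it the count was 4 of 44 (9.09%). The difference between groups was larger than the gap between the arrays of either group for 14 of 45 members (31.1%), against 20.2% of all genes. Both Ovol2 BT arrays lay on one side of both control arrays for 19 members (42.2%, all genes 34.2%), 11 of them higher (all genes 20.1%) and 8 lower (all genes 14.1%). The median log2 difference was 0.05 over the 45 members and 0.03 over all genes tested. Sp5 is counted in the 14, the 19 and the 11 higher, and does not bear on those shares either. With other normalisations, 2 or 3 of the 45 had an unadjusted p under 0.05 (all genes 4.12% to 4.5%). All these shares are descriptions and were not tested against the background. When each array was left out in turn, the difference took both signs for 21 of the 45, and for 7 (Wnt4, Wnt9a, Wnt16, Fzd10, Rnf43, Dkk1 and Notum) it stayed within 1.5 times its value over all arrays.

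**Figure D1:**
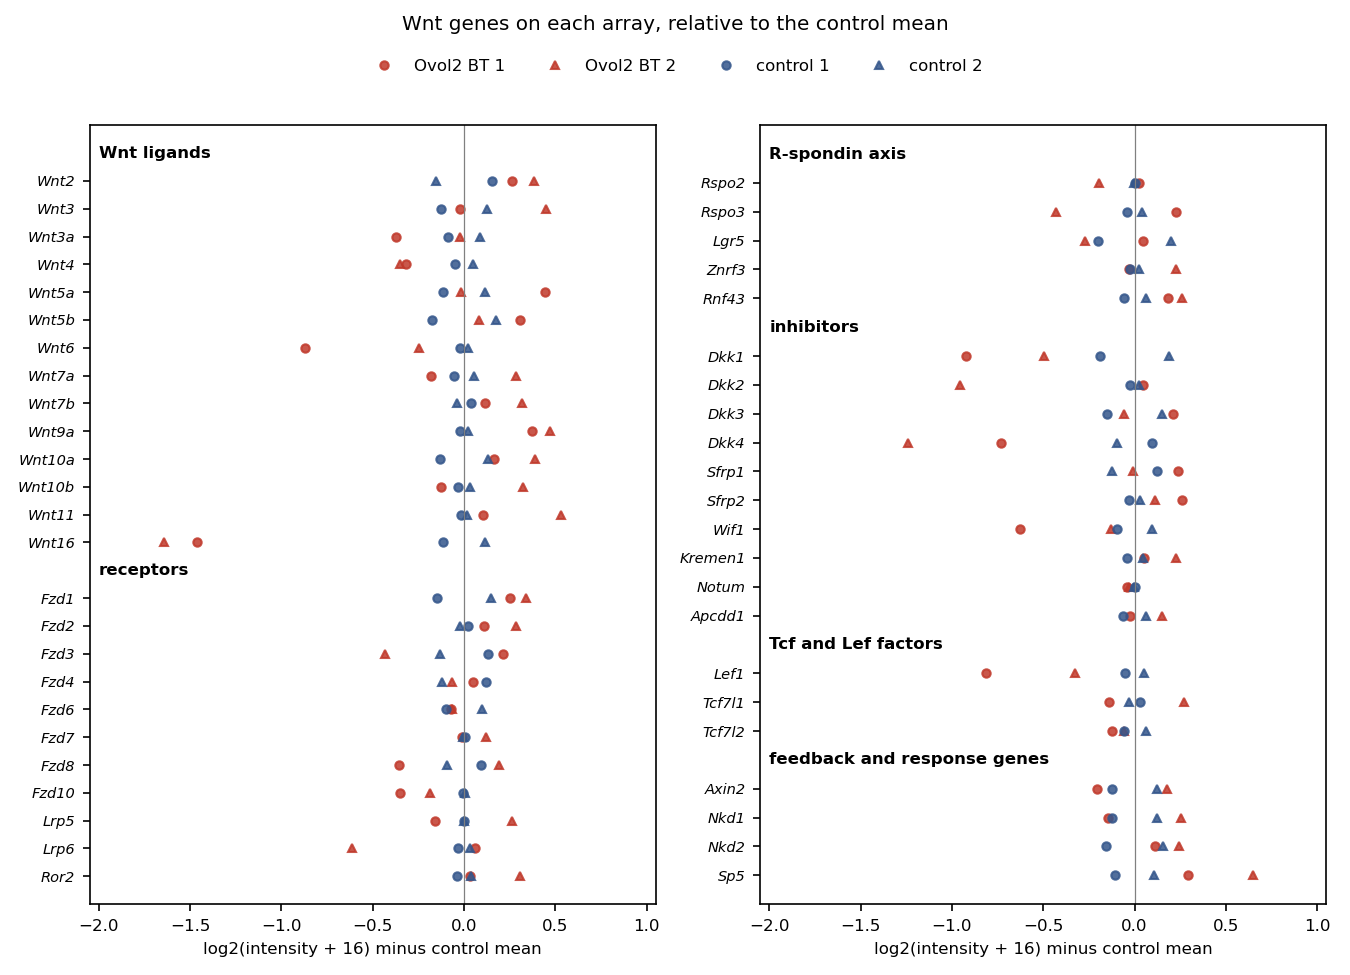
Level of each of the 47 measured Wnt genes on each array, as log2(intensity + 16) minus the mean of the 2 control arrays, by role. Red marks are Ovol2 BT and blue marks control arrays, circles replicate 1 and triangles replicate 2. Wnt16 lies farthest from the control arrays, at a mean difference of -1.55, and most other genes lie within 0.5 of the control mean.

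Among the ligands, Wnt16 stood out. Wnt16 is known for its role in cortical bone. It read 7.54 and 7.36 in Ovol2 BT skin, against 8.89 and 9.12 in control skin, and both Ovol2 BT arrays lay more than 1 log2 unit under both controls. Its difference was -1.55 (SE 0.18, 95% interval -1.998 to -1.11, unadjusted p = 0.000204, limma adjusted p = 0.218, n = 2 arrays per group). In linear intensity, Wnt16 averaged 159 in Ovol2 BT and 500 in control skin, a ratio of 0.319. Its Ovol2 BT values were near the filter level of 7.32, and a smaller and a larger offset before the log gave log2 differences of -1.64 and -1.33. By unadjusted p it ranked 14th of the 14953 genes tested. Within replicate number 1 the difference was -1.35 and within number 2 it was -1.76. It passed the adjusted threshold when one Ovol2 BT array was left out, at -1.64 without replicate 1 (adjusted p = 0.000594) and -1.46 without replicate 2 (adjusted p = 0.00975). Those fits called 2432 and 107 genes in all, and they rest on 1 Ovol2 BT array, which is assumed to vary like the control arrays. In them the spread comes from the 2 controls alone.

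The start regions of Wnt16, Dkk1 and Sp5 are shown because Wnt16 had the largest difference, Dkk1 was the one inhibitor of the 9 tested with an unadjusted p under 0.05, and Sp5 is a direct β-catenin target, and to show which of them hold the Tcf and Lef core. Each is the RefSeq window (GRCm38.p6) of 300 bases, 250 before and 50 from the annotated start, written 5′ to 3′ on the gene's strand. Capitals mark the Tcf and Lef core CTTTGA, searched on both strands. Only these letters were searched, and related forms of the core are not marked. Wnt16 lies at chr6:22287977-22288276 on the plus strand, Dkk1 at chr19:30549447-30549746 on the minus strand, and Sp5 at chr2:70474673-70474972 on the plus strand.
Wnt16: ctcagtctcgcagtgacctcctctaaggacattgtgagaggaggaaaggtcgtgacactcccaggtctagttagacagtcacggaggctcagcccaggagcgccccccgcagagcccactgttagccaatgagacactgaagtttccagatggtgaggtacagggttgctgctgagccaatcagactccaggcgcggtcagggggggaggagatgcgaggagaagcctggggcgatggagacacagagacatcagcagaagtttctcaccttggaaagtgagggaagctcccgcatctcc
Dkk1: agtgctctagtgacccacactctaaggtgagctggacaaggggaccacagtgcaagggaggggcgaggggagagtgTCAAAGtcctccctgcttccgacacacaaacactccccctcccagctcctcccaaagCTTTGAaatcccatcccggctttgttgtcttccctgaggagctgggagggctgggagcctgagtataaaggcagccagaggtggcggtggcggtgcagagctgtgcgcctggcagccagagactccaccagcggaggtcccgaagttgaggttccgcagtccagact
Sp5: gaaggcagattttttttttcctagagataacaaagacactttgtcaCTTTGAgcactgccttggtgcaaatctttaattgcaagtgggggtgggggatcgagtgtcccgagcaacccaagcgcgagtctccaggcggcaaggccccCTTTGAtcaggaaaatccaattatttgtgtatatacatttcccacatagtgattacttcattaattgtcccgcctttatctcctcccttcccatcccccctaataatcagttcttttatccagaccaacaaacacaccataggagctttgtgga

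The core begins 174 and 117 bases before the Dkk1 start and 204 and 104 bases before the Sp5 start, and these letters do not occur in the Wnt16 window. A window was found for 29 of the 48 members, with 38 windows in all. The Tcf and Lef core occurred in 6 of the 38 (15.8%), against 5257 of all 32851 windows of this length. By gene, 18.2% of all genes with a window hold it. The member genes that hold it are Dkk1, Fzd1, Lef1, Sp5, Wnt11 and Wnt5b; the Lef1 matches lie in one of its other windows, since the first of its 4 listed windows holds none. The Ovol core CCGTTA, also searched on both strands, occurred in 0 of the 38, against 2.76% of all windows.

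Of the other ligands, Wnt9a and Wnt6 differed most. Wnt9a, a ligand of developing joints, read 8.54 and 8.64 in Ovol2 BT skin, against 8.15 and 8.19 in control skin. Its groups did not overlap, and its difference was 0.42 (SE 0.16, unadjusted p = 0.0438, limma adjusted p = 0.906). Within numbers 1 and 2 it was 0.40 and 0.45. Wnt6, an ectodermal ligand, read 8.33 and 8.96 in Ovol2 BT skin, against 9.18 and 9.23 in control skin. Both values were lower, but the gap between the Ovol2 BT arrays was larger than the difference of -0.56 (SE 0.26, limma adjusted p = 0.906). Without Ovol2 BT replicate 1 it was -0.24, and without replicate 2 it was -0.87.

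The rest of the ligands differed by 0.33 or less in either direction. Over all 14 the median was 0.20, with 10 positive and 4 negative differences, and 8 ligands (57.1%, all genes 34.2%) had groups that did not overlap. The median was 0.07 without control replicate 1 and 0.04 without Ovol2 BT replicate 2, so it rested on the arrays used. Wnt4, an epidermal ligand also known from kidney and ovary, read 10.01 and 9.98 in Ovol2 BT skin, against 10.28 and 10.38 in control skin (-0.33, SE 0.18). Its dimmer probe set gave -0.08 with overlapping groups, so the 2 Wnt4 probe sets disagree in size. Wnt10a and Wnt10b, ligands of the hair placode, differed by 0.28 (SE 0.20) and 0.10 (SE 0.22), and Wnt10b overlapped between groups. Wnt2 (0.32), Wnt11 (0.32) and Wnt7b (0.22) were higher on both Ovol2 BT arrays. Leaving out 1 array moved them as low as 0.17 for Wnt2 (without control replicate 2), 0.105 for Wnt11 and 0.11 for Wnt7b (both without Ovol2 BT replicate 2). Wnt5a, the main ligand of the branch without β-catenin, read 10.46 and 10.01 in Ovol2 BT skin, against 9.91 and 10.14 in control skin, and its groups overlapped. Wnt3, Wnt3a, Wnt5b and Wnt7a overlapped too, with differences between -0.20 and 0.21.

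**Figure D2:**
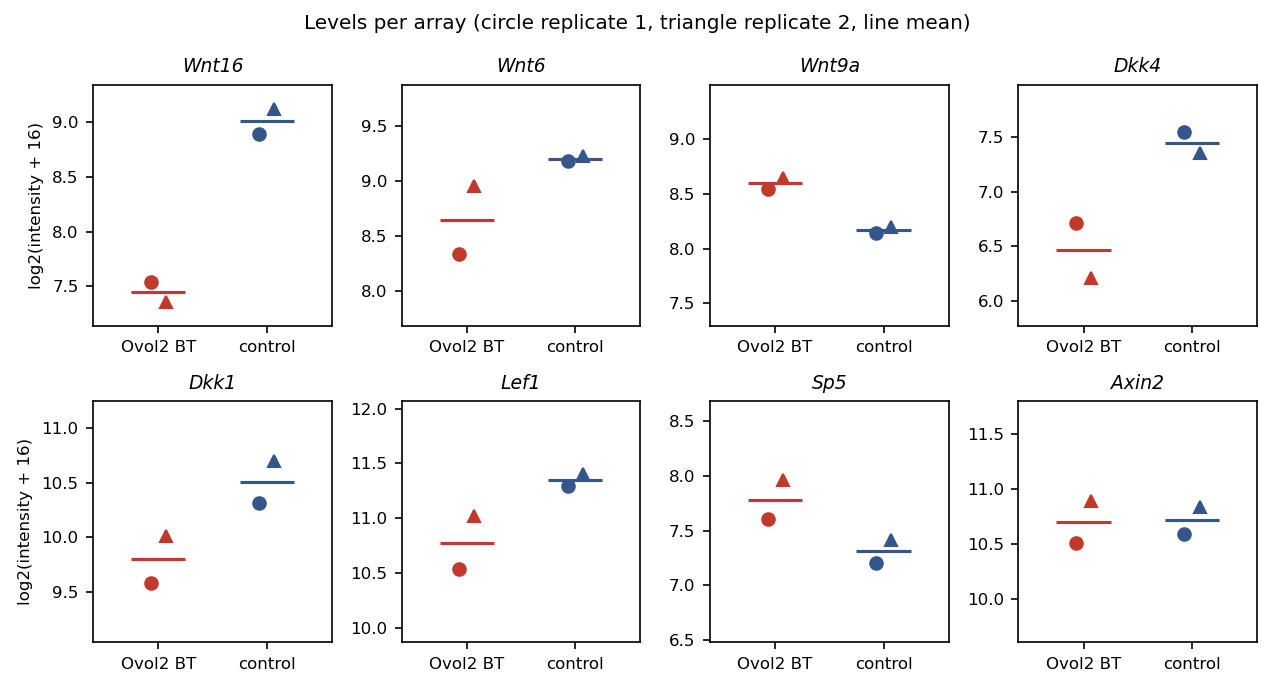
Levels of 8 genes on each array as log2(intensity + 16), with Ovol2 BT on the left and control on the right of each panel. Circles are replicate 1, triangles replicate 2 and lines the group means. Every panel spans 2.2 log2 units but starts at its own level. Groups are apart in all panels but that of Axin2, whose groups overlap.

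The receptors differed little. None of the 11 had an unadjusted p under 0.05 (all genes 4.23%), and the median difference was -0.01. Groups overlapped for 8, and 27.3% of the receptors had groups apart, against 34.2% of all genes. These counts are near the shares of all genes and are not particular to the receptors. The median turned positive with quantile normalisation (0.01) and median centring (0.02), and without any 1 array (0.03 to 0.12). Fzd1, one of the Frizzled receptors, read 11.03 and 11.12 in Ovol2 BT skin, against 10.63 and 10.92 in control skin (0.29, SE 0.18). Fzd10 read 10.14 and 10.31 in Ovol2 BT skin, against 10.49 and 10.49 in control skin (-0.27, SE 0.18). Fzd2 also had groups that did not overlap (0.20, SE 0.15). Those 3 were the receptors whose groups were apart, with Fzd1 and Fzd2 higher and Fzd10 lower. The co-receptor Lrp6 read 11.10 and 10.42 in Ovol2 BT skin, against 11.00 and 11.07 in control skin. Its difference of -0.28 (SE 0.26) rested on Ovol2 BT replicate 2: it was 0.06 without that array and -0.61 without replicate 1. The co-receptor Lrp5 differed by 0.05 (SE 0.20) and the alternative receptor Ror2 by 0.17 (SE 0.19). Fzd3, Fzd4, Fzd6, Fzd7 and Fzd8 lay between -0.11 and 0.05.

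R-spondins raise the number of Wnt receptors at the cell surface by binding Lgr receptors and holding off the ubiquitin ligases Znrf3 and Rnf43, which otherwise remove Frizzled. None of the 4 genes tested here had an unadjusted p under 0.05 (all genes 4.23%), and so short a list cannot show a departure from that share. Rnf43 read 9.65 and 9.73 in Ovol2 BT skin, against 9.41 and 9.53 in control skin (0.22, SE 0.18). It was the one gene of the 5 whose groups were apart, as they were for 34.2% of all genes. Znrf3 differed by 0.10 (SE 0.18). Lgr5, a receptor that is also a Wnt response gene and a stem cell marker of the hair follicle, read 10.46 and 10.14 in Ovol2 BT skin, against 10.21 and 10.61 in control skin. Rspo3 read 9.43 and 8.78 in Ovol2 BT skin, against 9.17 and 9.25 in control skin. For both the groups overlapped, with differences of -0.11 (SE 0.23) and -0.10 (SE 0.27). Their sign turned without Ovol2 BT replicate 2, at 0.05 for Lgr5 and 0.23 for Rspo3. Rspo2 was dim, at 6.99 and 6.77 in Ovol2 BT skin, against 6.97 and 6.97 in control skin.

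Among the inhibitors, Dkk1 and Dkk4 had the largest differences, and each was lower on both Ovol2 BT arrays. Dkk1 blocks Lrp5 and Lrp6. It read 9.59 and 10.01 in Ovol2 BT skin, against 10.32 and 10.70 in control skin, a difference of -0.71 (SE 0.25, 95% interval -1.32 to -0.09, unadjusted p = 0.0316, limma adjusted p = 0.906). The groups did not overlap, and within numbers 1 and 2 it was -0.73 and -0.68. In linear intensity Dkk1 averaged 886 in Ovol2 BT and 1450 in control skin. Dkk4, an inhibitor made in the hair placode, read 6.72 and 6.21 in Ovol2 BT skin, against 7.54 and 7.35 in control skin. Its difference of -0.98 was larger than the gap within either group, and it was -0.82 and -1.14 within numbers 1 and 2. Its mean lay under the filter, so it has no test among the genes reported. With no filter its unadjusted p was 0.00435 (limma adjusted p = 0.725).

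The other Dkk genes did not share this pattern. Dkk2 read 8.89 and 7.89 in Ovol2 BT skin, against 8.82 and 8.87 in control skin, so that replicate 2 alone was low. Its difference of -0.46 (SE 0.35) was 0.04 without that array, and -0.96 without replicate 1, when replicate 2 stood alone for Ovol2 BT. Dkk3 differed by 0.08 (SE 0.22) and overlapped. Wif1, which binds Wnt proteins outside the cell, read 10.82 and 11.32 in Ovol2 BT skin, against 11.35 and 11.54 in control skin. It was lower by a margin smaller than the gap between the Ovol2 BT arrays (-0.38, SE 0.21), at -0.13 without Ovol2 BT replicate 1 and -0.63 without replicate 2. Sfrp1 and Sfrp2, secreted proteins that also bind Wnt proteins, differed by 0.12 (SE 0.19) and 0.19 (SE 0.12). Kremen1, a partner of Dkk proteins, differed by 0.14 (SE 0.15), and Apcdd1, a membrane-bound inhibitor, by 0.06 (SE 0.10). Sfrp2 and Kremen1 were higher on both Ovol2 BT arrays than on both control arrays, while Sfrp1 and Apcdd1 overlapped. Notum, an enzyme that removes the lipid from Wnt proteins, read 8.34 and 8.35 in Ovol2 BT skin, against 8.39 and 8.38 in control skin, groups that do not overlap but lie almost level. Over the 9 inhibitors tested the median was 0.06, and it was -0.03 without control replicate 1, -0.01 without control replicate 2 and -0.03 without Ovol2 BT replicate 1.

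Of the nuclear factors, Lef1 was lower and the others did not follow. Lef1, the partner of β-catenin in hair placodes and the dermis under them, read 10.54 and 11.02 in Ovol2 BT skin, against 11.29 and 11.40 in control skin. The groups did not overlap, and the difference was -0.57 (SE 0.21, 95% interval -1.099 to -0.04, unadjusted p = 0.0392, limma adjusted p = 0.906). It was -0.76 and -0.38 within numbers 1 and 2. Without Ovol2 BT replicate 1 it was -0.33, and without replicate 2 it was -0.81. Tcf7l1, mainly a repressor in skin stem cells, read 11.06 and 11.47 in Ovol2 BT skin, against 11.22 and 11.17 in control skin. Tcf7l2 read 10.89 and 10.96 in Ovol2 BT skin, against 10.95 and 11.07 in control skin. Both overlapped between groups, with differences of 0.07 (SE 0.19) and -0.09 (SE 0.16).

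The feedback genes that report β-catenin signalling in most tissues mostly differed by less than their standard errors, which does not show that they were level. Axin2, a scaffold of the destruction complex and a common readout of the pathway, read 10.51 and 10.89 in Ovol2 BT skin, against 10.60 and 10.84 in control skin. Its groups overlapped, and the difference was -0.02 (SE 0.21, 95% interval -0.54 to 0.51), so the error leaves room for a difference of either sign. Nkd1 and Nkd2, inhibitors that bind Dishevelled, differed by 0.05 (SE 0.21, 95% interval -0.48 to 0.58) and 0.18 (SE 0.20, 95% interval -0.32 to 0.68). Their groups overlapped. Sp5, a transcription factor gene that β-catenin induces directly, was the exception. It read 7.60 and 7.96 in Ovol2 BT skin, against 7.20 and 7.42 in control skin, a difference of 0.47 (SE 0.18, unadjusted p = 0.0445, limma adjusted p = 0.906). Its groups did not overlap, and within numbers 1 and 2 it was 0.40 and 0.54. Sp5 was dim, with a control mean of 7.31, just under the filter, so it was tested only because of its Ovol2 BT values. It was 0.29 without Ovol2 BT replicate 2 and 0.65 without replicate 1.

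**Figure D3:**
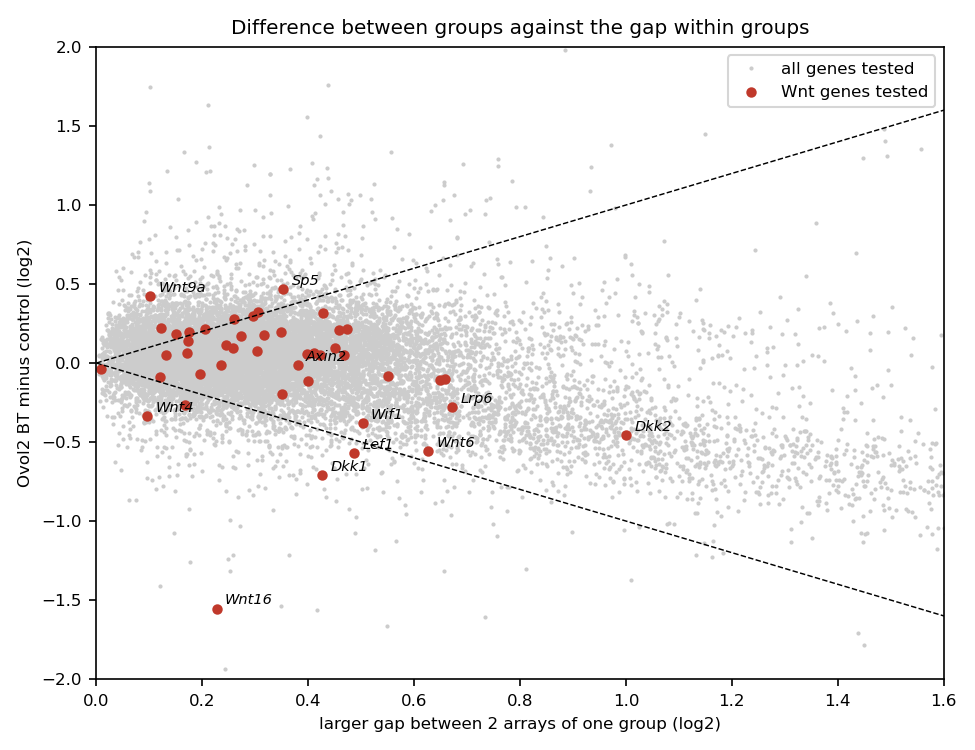
Ovol2 BT minus control difference (log2, vertical) against the larger of the gaps between the 2 arrays of one group (log2, horizontal) for the 45 Wnt genes tested (red) and all genes tested (grey). Beyond the dashed lines the difference exceeds both gaps, as for 14 Wnt genes, with Wnt16 farthest out. 306 genes lie outside the axes.

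Lower Lef1, Dkk1 and Dkk4 came with unequal values of hair follicle markers. Of 8 markers of follicle epithelium, 4 were lower (all genes 14.1%) and 4 higher (all genes 20.1%) on both Ovol2 BT arrays. The list was chosen with earlier results of these data known, so this count is only a description. The summed intensity of the 8 was 18369 and 19232 in Ovol2 BT skin, against 17207 and 16914 in control skin. Krt17 set that direction: the other 7 summed to 9787 and 9878 in Ovol2 BT skin, against 10819 and 11107 in control skin. Trps1 carried much of that lower sum, at intensities of 2318 and 1280 in Ovol2 BT skin, against 3004 and 3041 in control skin. Of the 7, Lhx2, Edar, Shh and Trps1 were lower and Foxi3, Sox9 and Dlx3 higher, so each sum rests on the genes taken. The placode regulator Lhx2 read 9.35 and 9.63 in Ovol2 BT skin, against 10.55 and 10.50 in control skin (-1.03, SE 0.20, limma adjusted p = 0.498). The follicle regulator Sox9 went the other way (0.56). The 8 markers of the dermal condensate, the cell cluster under the placode, had a median of -0.17 and summed to 10535 and 11717 in Ovol2 BT skin, against 11723 and 11243 in control skin, with groups that overlap. The melanocyte markers (8 genes) summed to 5606 and 5941 in Ovol2 BT skin, against 6384 and 7078 in control skin. No marker of these lists was at 0. Their part in the Wnt gene values was not tested, and in whole skin fewer cells of a type and less RNA per cell cannot be told apart.

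A further 85 genes of the pathway, listed with earlier results of these data known, were examined, and 80 of them passed the filter. None changed at an adjusted p under 0.05 in limma, and 11 had an unadjusted p under 0.05 (13.8%, against 4.23% of all genes), 5 of them higher and 6 lower. The median was 0.04, and groups did not overlap for 41 genes (51.2%, all genes 34.2%). Among the 21 further ligands, receptors and secretion factors tested, 3 had an unadjusted p under 0.05 (14.3%, all genes 4.23%). All of them were higher (all genes 2.49%). Porcn, which attaches the lipid that Wnt proteins need for secretion, read 10.04 and 9.95 in Ovol2 BT skin, against 9.07 and 9.30 in control skin (0.81, SE 0.20, limma adjusted p = 0.765). The secreted inhibitor Sfrp5 read 9.35 and 9.57 in Ovol2 BT skin, against 8.72 and 8.58 in control skin (0.81, SE 0.19, adjusted p = 0.758). Sostdc1, a secreted antagonist of Wnt and BMP signals around the placode, read 12.34 and 12.32 in Ovol2 BT skin, against 11.42 and 11.80 in control skin (0.72, SE 0.16, adjusted p = 0.669). In these 3 genes every Ovol2 BT value lay above both controls.

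Of 27 intracellular components, 1 had an unadjusted p under 0.05 (3.7%, all genes 4.23%). This was Ctnnb1, which encodes β-catenin itself, at 12.75 and 12.68 in Ovol2 BT skin, against 12.94 and 12.93 in control skin (-0.22, SE 0.08, limma adjusted p = 0.906). The destruction complex gene Apc read 9.85 and 8.84 in Ovol2 BT skin, against 9.79 and 9.95 in control skin, so that only replicate 2 was low. Of 12 planar polarity genes none had an unadjusted p under 0.05, and the largest differences were those of Vangl1 (0.43, SE 0.20) and Celsr3 (0.33, SE 0.13). Of 20 other response genes, 7 did (35.0%, all genes 4.23%), 2 of them higher (all genes 2.49%) and 5 lower (all genes 1.74%). This list was chosen with earlier results of these data known, so its share is a description and not independent support. Edar, Sox9 and Shh, which are among the 7, were also counted above as follicle markers. Ascl2, a transcription factor gene induced by Wnt signals in intestinal stem cells, read 9.35 and 9.87 in Ovol2 BT skin, against 8.35 and 8.60 in control skin (1.13, SE 0.25, adjusted p = 0.657). Edar, the ectodysplasin receptor gene of the placode, read 8.63 and 9.13 in Ovol2 BT skin, against 9.63 and 9.74 in control skin (-0.80, SE 0.24, adjusted p = 0.906). Tnfrsf19, a Wnt-induced receptor gene of the same family, read 10.39 and 10.39 in Ovol2 BT skin, against 10.94 and 11.13 in control skin (-0.64, SE 0.17, adjusted p = 0.798). Sox9 read 11.13 and 11.20 in Ovol2 BT skin, against 10.52 and 10.685 in control skin (0.56, SE 0.16, limma adjusted p = 0.901). In all of these named response genes the groups were apart, Ascl2 and Sox9 higher and Edar and Tnfrsf19 lower in Ovol2 BT skin.

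**Figure D4:**
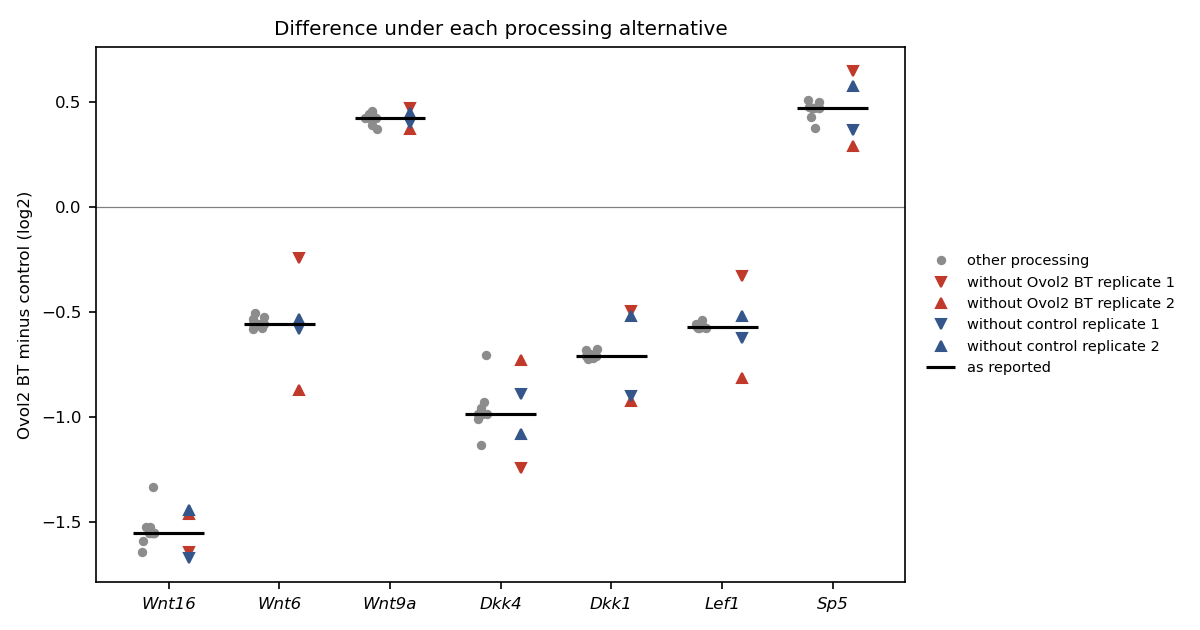
Ovol2 BT minus control difference (log2) of the 7 Wnt genes with an unadjusted p under 0.05 or a difference of at least 0.5, under each alternative. Grey circles are other normalisations, offsets, filters and models, triangles leave out the array named, and black lines are the reported values. No gene crossed 0, which only the other normalisations could have changed, since the groups of each gene do not overlap. Wnt16 ranged from -1.67 to -1.33.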

How the data were processed

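The deposited table holds 35557 probe sets and 4 arrays as intensity values on a linear scale, for which the authors used Expression Console 1.1.1 (Affymetrix) with PLIER 2.0, per the submitters' processing notes. How arrays were normalised to each other is not given in the sources used here, nor is the genome build. The platform annotation gave 1 symbol for 21789 probe sets, several for 1621 and none for 12147, and only the first kind was used. Symbols were updated by Entrez number (21698 matched). Values were taken to log2(intensity + 16), the brightest probe set of each gene was kept, and genes under the 25th percentile of mean level (7.32) were left out. The difference, Ovol2 BT minus control, was fitted with limma 3.58.1 (R 4.3.3) and an intensity trend on all 4 arrays (2 residual and 3.45 prior degrees of freedom). The offset shrinks differences of dim genes. Steps were tested on simulated data. No exact permutation test was made, since with 2 arrays a group its smallest p is 0.333. Arrays give no depth, and their number limits precision. The labels call the replicates biological, but do not say how they relate to litters, and p-values measure only the spread between these arrays.

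Members, lists and rules were chosen with earlier results of these data known. Within each role, genes with an unadjusted p under 0.05 or an absolute difference of at least 0.5 were named with all values, filled up to 3 by size; further pathway genes by p, up to 4 a list, or else the 2 largest. Apc, Lhx2, Kdm5d and other genes given by value were chosen after their values were seen. Alternatives were other normalisations, offsets, filters, probe set means, no trend, array weights, a replicate block and leaving out each array.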

Additional observations from a re-analysis of the deposited data

How the results depend on the processing

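The 15 alternatives all kept the direction of Wnt16, Wnt6, Wnt9a, Dkk1, Dkk4, Lef1 and Sp5. For most alternatives this was fixed in advance. The groups of these genes did not overlap, so leaving out an array or changing the offset could not reverse them. Filters, probe set means and models left their differences unchanged. Only the other normalisations could have turned a sign. Wnt16 ranged from -1.67 to -1.33, with an adjusted p of 0.000594 to 0.447. Of the members tested in each setting (45 in most), none passed the adjusted threshold in any setting that kept both Ovol2 BT arrays. Some passed when an Ovol2 BT array was left out, where the spread comes from the 2 control arrays alone. More genes of all kinds passed in those fits too, so these calls are not read as results about the members. Leaving out one array at a time gave ranges that cross 0 for 21 of 45 members, of which 6 were named by the rule: Lrp6 (-0.613 to 0.0582), Dkk2 (-0.957 to 0.0435), Rspo3 (-0.429 to 0.229), Lgr5 (-0.312 to 0.0866), Tcf7l1 (-0.139 to 0.272) and Nkd1 (-0.145 to 0.254). These 6 reversed without Ovol2 BT replicate 2 (Lgr5 at 0.0456), Nkd1 also without control replicate 1 (-0.0665) and Lgr5 without control replicate 2. The cause was not tested. Over leave-one-out fits, genes called ranged from 4 to 2432, members at an unadjusted p under 0.05 from 1 to 11, members whose groups do not overlap from 25 to 38 (a lone array overlaps less), the members' median from 0.02 to 0.119 and further pathway genes called from 0 to 16. The 11 members came without Ovol2 BT replicate 1, where a larger share of all genes than of members had such a p. That count is therefore no sign of a stronger change among the members. Genes called were 10 with median centring and 0 with cyclic loess or a variance without trend. Members at an unadjusted p under 0.05 were 3 of 45 with quantile normalisation (all genes 4.28%), cyclic loess (4.5%) or array weights (4.25%). With median centring they were 2 of 45 (all genes 4.12%), and with the 50th percentile filter 2 of 36 (all genes 3.63%). The reported 5 of 45 thus depended on the processing. With the replicate number as a block, 9 genes and 0 members were called. The block follows the Y-linked signal, but the numbers are not stated to pair samples: deviations of same-numbered arrays correlated at -0.172 over genes. The crossed pairing, chosen after seeing the data, called 5 genes and 0 members. The dimmer Wnt4 probe set, also added then, kept its direction. The files give no background signal; Dkk4, Rspo2, Sp5 and, in Ovol2 BT skin, Wnt16 lay near or under the filter level, where the offset bears on the size of a difference.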
